A study of Homo sapiens with 61 samples.

Results

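The transcripts of 10 regulators of the integrated stress response were followed in human neurons exposed to vincristine: ATF4, DDIT3, ATF5, TRIB3, PPP1R15A, CHAC1, SESN2, DDIT4, CEBPB and CEBPG. They were chosen by name, as stress response transcription factors and feedback regulators, and their symbols were matched to the gene identifiers of the count tables through GENCODE release 29. They are 10 of the 58440 identifiers counted. All 10 passed the filter on low counts in both experiments, where 18235 genes were tested in experiment 1 and 20759 in experiment 2.

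The neurons came from WTC11, a widely used line of human induced pluripotent stem cells. They were made by inducing the neurogenic factor NGN2 from a doxycycline cassette, and all 14 groups share this origin. Experiment 1 (32 libraries) held wild type cells (WT), a knockout (KO) of the kinase DLK (gene MAP3K12), a knockout of the related kinase LZK (gene MAP3K13) and a knockout of both (DLK LZK double KO), each with 4 untreated and 4 vincristine libraries. In experiment 2 (29 libraries) all cells also carried the CRISPR interference machinery, which represses a gene that a guide RNA (gRNA) points to. They received a scrambled Control gRNA, a gRNA against ATF2 or a gRNA against JUN by lentivirus. Control gRNA and JUN gRNA had 5 untreated and 5 vincristine libraries each, and ATF2 gRNA had 5 untreated and 4 vincristine libraries. Vincristine, a drug that stops microtubules from assembling, was given at 5 nM for 16 hours from day 14, and the groups called untreated received the vehicle DMSO. One protocol label gives the length of differentiation as 10 to 14 days. The labels do not say whether a knockout line is 1 clone, nor that replicates are separate cultures, so p-values measure only the spread between these libraries.

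In the integrated stress response, the kinases PERK, GCN2, PKR and HRI each phosphorylate the translation factor eIF2 on its alpha subunit. General translation then falls, while the messenger RNA of ATF4 is translated more, and the ATF4 protein switches on genes for amino acid supply, redox balance and feedback. Since ATF4 is governed largely at translation, its transcript is not a measure of its protein. In neurons, DLK and LZK are known as upstream kinases of JNK signalling after axon injury, and JUN and ATF2 are transcription factors that JNK phosphorylates.

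The genes lie as follows on GRCh38. ATF4 (ENSG00000128272.14, chromosome 22, 39519695 to 39522685) is the central transcription factor of the response. DDIT3, also called CHOP (ENSG00000175197.12, chromosome 12, 57516588 to 57521737), is a C/EBP family factor known for promoting cell death under lasting stress. ATF5 (ENSG00000169136.10, chromosome 19, 49928702 to 49933935) is a relative of ATF4 that is also regulated at translation. CEBPB (ENSG00000172216.5, chromosome 20, 50190734 to 50192689) and CEBPG (ENSG00000153879.8, chromosome 19, 33373330 to 33382686) encode C/EBP factors that can pair with ATF4. TRIB3 (ENSG00000101255.10, chromosome 20, 362835 to 397559) encodes a pseudokinase that restrains ATF4 and DDIT3. PPP1R15A, also called GADD34 (ENSG00000087074.7, chromosome 19, 48872392 to 48876057), directs a phosphatase to eIF2 and so ends the response. CHAC1 (ENSG00000128965.11, chromosome 15, 40952962 to 40956519) degrades glutathione. SESN2 (ENSG00000130766.4, chromosome 1, 28259527 to 28282491) and DDIT4, also called REDD1 (ENSG00000168209.4, chromosome 10, 72273920 to 72276036), restrain the growth kinase complex mTORC1.

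The promoters are shown because ATF2, JUN, ATF4 and the C/EBP factors bind short, known DNA elements, and experiment 2 lowered ATF2 or JUN. RefSeq promoter windows on GRCh38.p14, each from 250 bases before a transcript start to 50 bases after it, were found for 10 of the 10 genes (18 windows). They were searched on both strands for 3 motifs: TGATGNAA, the core of the C/EBP-ATF response element, TGACGTCA, the cAMP response element that ATF2 binds, and TGANTCA, the AP-1 element that JUN binds. No match shared bases with a match of another motif. Below, the matched motif is in capitals.
CHAC1, chr15:40953251-40953280, plus strand: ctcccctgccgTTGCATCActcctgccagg
CEBPG, chr19:33374021-33374112, plus strand: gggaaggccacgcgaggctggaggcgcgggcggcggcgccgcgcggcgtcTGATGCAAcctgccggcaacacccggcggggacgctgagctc
PPP1R15A, chr19:48872313-48872391, plus strand: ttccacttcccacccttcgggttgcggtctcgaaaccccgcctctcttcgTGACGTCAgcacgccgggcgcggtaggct
DDIT3, chr12:57520737-57520766, minus strand: gcgcgcgcgcaTGACTCAcccacctcctcc
ATF5, chr19:49928707-49928736, plus strand: ggagagtgctgTGACTCAtgctggactcta
The C/EBP-ATF core was found in CHAC1 (first base at -209 from the start used, within an exon of another CHAC1 transcript) and in CEBPG (-42). Of all 27305 genes with promoter windows, 4.46% held it (3.62% of the 35116 windows). The cAMP response element was found in PPP1R15A (-58), and 2.25% of genes held it (1.85% of windows). The AP-1 element was found in DDIT3 (-238) and in ATF5 (-188, within an exon), and 9.37% of genes held it (7.71% of windows). The other 5 genes, ATF4, TRIB3, SESN2, DDIT4 and CEBPB, had none of these letters in their windows. A match of letters is a description and does not show that a factor binds there.

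Libraries held 8.41 to 14.6 M counts (M, 1000000) in experiment 1 and 38.9 to 88.4 M in experiment 2. Each targeted transcript stood below its control in all libraries, at 0.403% to 0.409% of control for ATF2, 2.71% to 3.24% for JUN, 19.1% to 29.0% for MAP3K12 and 21.7% to 32.2% for MAP3K13. The 7 neuron markers examined summed to between 5575 and 8358 CPM in every library (CPM, counts per M after TMM scaling), whereas 5 astrocyte markers summed to at most 8.42 CPM. In bulk RNA, fewer cells of a type and less RNA per cell cannot be told apart. The 2 experiments were scaled separately, so levels are compared only within an experiment.

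The first comparison asked how vincristine changed the regulators in WT neurons. All 10 rose, and for each of them the 4 vincristine libraries lay above the 4 untreated libraries. The libraries of 13.2% of all genes lay apart in that direction. Across all genes 30.2% were called, that is had an adjusted p under 0.05 (edgeR quasi-likelihood test, Benjamini-Hochberg over all genes tested), and 15.7% were called higher. The median log2 fold change of the 10 was 2.19, against a median of all genes near 0. On the log2 scale, fold changes lay between 1.09 ± 0.09 (SE) for ATF4 and 3.14 ± 0.16 for DDIT3.

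DDIT3 stood at 15.3, 13.0, 11.9 and 9.74 CPM in the untreated WT libraries and at 94.6, 111, 93.6 and 141 CPM with vincristine. The mean rose from 12.5 ± 2.31 to 110 ± 22.1 CPM (SD, n = 4), a fold change of 8.82 in the fit. CEBPB stood at 4.87, 6.99, 5.27 and 4.17 CPM untreated and at 53.7, 52.6, 38.8 and 26.3 CPM with vincristine, with a log2 fold change of 3.00 ± 0.19. In both genes the treated libraries were spread over a wider range than the untreated ones. CHAC1, the glutathione-degrading enzyme, stood at 4.21, 6.43, 5.13 and 5.27 CPM untreated and at 37.5, 40.6, 37.9 and 39.4 CPM with vincristine (2.88 ± 0.12). SESN2 stood at 13.1, 12.2, 11.2 and 10.7 CPM untreated and at 105, 91.3, 90.5 and 57.8 CPM with vincristine (2.87 ± 0.14).

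The feedback regulator TRIB3 stood at 15.1, 16.5, 13.8 and 11.2 CPM untreated and at 90.2, 78.4, 76.4 and 61.2 CPM with vincristine (log2 fold change 2.44 ± 0.11). ATF5 rose by 1.95 ± 0.12 on the log2 scale, DDIT4 by 1.70 ± 0.08, CEBPG by 1.61 ± 0.07 and PPP1R15A by 1.46 ± 0.09. ATF4 stood at 182, 170, 178 and 167 CPM untreated and at 337, 387, 321 and 441 CPM with vincristine. Its 2.13-fold rise was the smallest of the 10. DDIT3's 8.82-fold rise was the largest with all libraries, but without vincristine replicate 4 CEBPB (log2 fold change 3.17) and SESN2 (3.02) stood above DDIT3 (3.00).

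**Figure D1:**
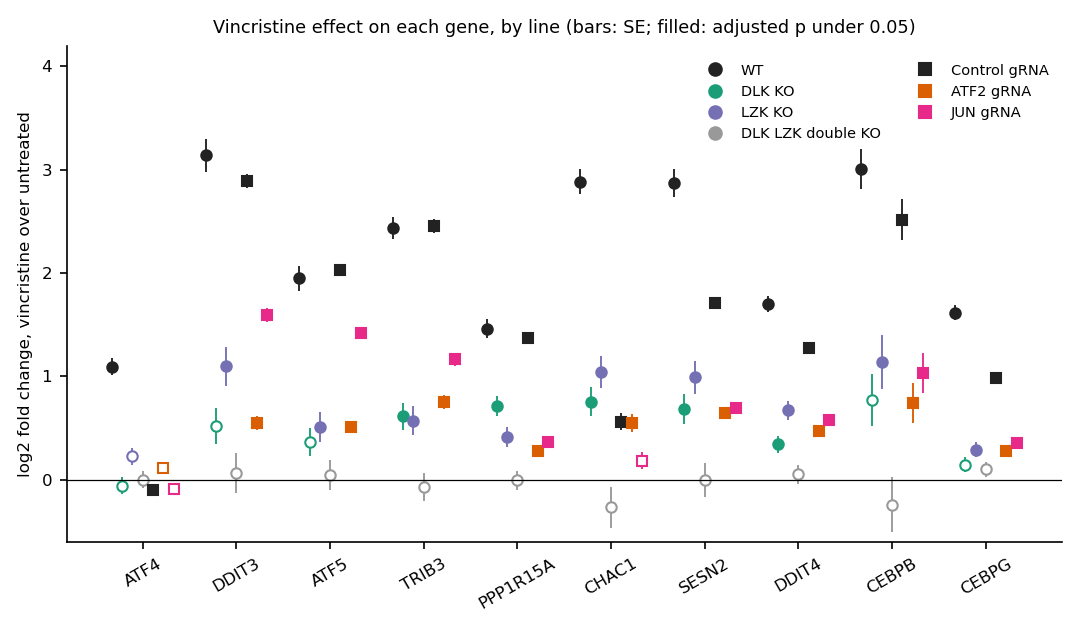
Log2 fold change of vincristine over untreated for the 10 genes (x axis) in the 7 lines; points are estimates of the fit, bars are SE, and filled points have an adjusted p under 0.05. WT and Control gRNA lie highest for 8 genes, the DLK LZK double KO lies near 0, and ATF4 stands at 1.09 in WT and -0.10 in Control gRNA.

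One WT vincristine library, replicate 4, stood apart from its group. It held the highest of the 4 values for ATF4 (441 CPM), DDIT3 (141) and CEBPG (292) and the lowest for TRIB3 (61.2), PPP1R15A (119), SESN2 (57.8), DDIT4 (63.2) and CEBPB (26.3). Mitochondrial transcripts took 10.3% of its counts, against 6.11% to 7.56% in the other 3. Its summed level of 5 dividing progenitor markers (mostly NES) was 923 CPM, against 1580 to 1951 CPM in the other 3 and 734 to 775 CPM in untreated WT. Without it all 10 regulators were still called higher, with log2 fold changes of 1.00 for ATF4, 3.00 for DDIT3, 3.02 for SESN2 and 3.17 for CEBPB.

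Per kilobase of exon, ATF4 was the most abundant of the 10 transcripts in WT with and without vincristine, at 148 and 69.3 CPM per kilobase. DDIT3 moved from the fifth place (9.54 CPM per kilobase) to the second (84.2), above CEBPG (57.6) and PPP1R15A (53.4). The same measure placed DDIT3 seventh in untreated Control gRNA (14.9 CPM per kilobase), behind ATF4, CEBPG, DDIT4, CHAC1, PPP1R15A and SESN2, and second with vincristine (111).

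The second comparison asked how far the response depended on the 2 kinases. In the double KO none of the 10 was called in the edgeR test, and the log2 fold changes ran from -0.27 ± 0.20 for CHAC1 to 0.10 ± 0.07 for CEBPG. In all 10 the treated and untreated libraries overlapped. Across all genes only 9.94% lay apart there, so this overlap alone is not a result about the 10. Neither DESeq2 nor limma voom called any of the 10 there, 0 had an unadjusted p under 0.05, and 0.0658% of all genes were called (0.00548% higher and 0.0603% lower). DDIT3 stood at 6.86, 8.98, 7.30 and 8.57 CPM untreated and at 9.94, 7.99, 7.46 and 8.07 CPM with vincristine in the double KO.

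The single knockouts lay between for most of the 10. ATF4 in DLK KO did not, with means of 193 CPM untreated and 186 CPM with vincristine, beside 177 and 177 CPM in the double KO. With vincristine, 5 of the 10 rose in DLK KO, namely TRIB3, PPP1R15A, CHAC1, SESN2 and DDIT4, and 0 fell, against 4.24% of all genes called higher and 2.28% called lower. The largest was CHAC1 at 0.75 ± 0.14 (edgeR adjusted p = 0.000589). DDIT3 had a log2 difference of 0.52 ± 0.18 in DLK KO, with an edgeR adjusted p = 0.0702. Its 4 treated libraries (14.6 to 16.4 CPM) lay above the 4 untreated ones (9.37 to 12.4 CPM), as did those of 11.4% of all genes. A fit of only the 2 DLK KO groups called 8 of the 10. The call of DDIT4 (0.34) was lost without untreated replicate 2 (0.30), with no filter (0.33) and with offsets for GC content (0.17), as was that of CHAC1 with the offsets (0.51). DDIT3 and CEBPB were called there with DESeq2, limma voom or no filter. The summed progenitor markers were 209 to 272 CPM untreated and 490 to 602 CPM with vincristine in DLK KO, 512 to 669 and 974 to 1168 CPM in LZK KO, and 123 to 130 and 120 to 126 CPM in the double KO, and their part in these results was not tested.

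In LZK KO, 9 of the 10 rose, all but ATF4, where 3.88% of all genes were called and 2.27% were called higher. DDIT3 stood at 8.19, 6.86, 8.23 and 11.1 CPM untreated and at 18.0, 26.8, 16.2 and 12.5 CPM with vincristine (log2 fold change 1.09 ± 0.19). Its treated libraries all lay above the untreated ones, as did those of 4.2% of all genes, but spread over more than a doubling. CEBPB (1.14 ± 0.26), CHAC1 (1.05 ± 0.15) and SESN2 (0.99 ± 0.16) rose by similar amounts. Leaving out single libraries ended 3 weaker calls, at times with a log2 fold change that hardly moved. That of ATF5 (0.51) was lost without untreated replicate 1, 2 or 4 or without vincristine replicate 1, 3 or 4 (0.44 to 0.52), that of TRIB3 (0.57) without untreated replicate 4 (0.48) or vincristine replicate 4 (0.50), and that of CEBPG (0.29) without vincristine replicate 2 (0.25). An edgeR fit of only the 2 LZK KO groups called none of these 3, and the call of ATF5 was also lost with limma voom (0.54), offsets for GC content (0.43) and the replicate block (0.51).

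Tested as a difference in effect (an interaction term), all 10 responses were smaller than in WT in each of the 3 knockouts. Across all genes, 9.41% were called lower and 9.95% higher for DLK KO, 6.53% lower and 5.88% higher for LZK KO, and 10.2% lower and 9.21% higher for the double KO. In DLK KO the differences ran from -0.75 ± 0.13 for PPP1R15A to -2.62 ± 0.24 for DDIT3. In LZK KO they ran from -0.87 ± 0.12 for ATF4 to -2.05 ± 0.25 for DDIT3. In the double KO they ran from -1.09 ± 0.12 for ATF4 to -3.25 ± 0.33 for CEBPB, with CHAC1 at -3.15 ± 0.24 and DDIT3 at -3.08 ± 0.25. These 30 calls held in every alternative run, including each library left out.

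Between the double KO and a single knockout, fewer differences passed the test. Against DLK KO, 2 of the 10 were lower, PPP1R15A (-0.72 ± 0.13) and CHAC1 (-1.02 ± 0.25), where 1.01% of all genes were called lower. The call of PPP1R15A held in every alternative. That of CHAC1 was lost when any of 10 single libraries was removed (-1.03 to -0.93). These were untreated replicates 3 and 4 and vincristine replicate 1 of DLK KO, and untreated replicates 1 to 4 and vincristine replicates 1, 3 and 4 of the double KO. Against LZK KO, 3 of the 10 were lower, CHAC1 (-1.31 ± 0.26), SESN2 (-0.99 ± 0.23) and DDIT4 (-0.62 ± 0.13), where 0.746% of all genes were called lower. The call of SESN2 was lost without LZK KO vincristine replicate 2 (-0.91) or 3 (-0.94), and those of CHAC1 (-1.19) and DDIT4 (-0.51) with offsets for GC content, which also ended the call of CHAC1 against DLK KO (-0.74). DDIT3 had a difference of -1.03 ± 0.27 against LZK KO (edgeR adjusted p = 0.0568) and of -0.45 ± 0.26 against DLK KO (edgeR adjusted p = 0.362). The former passed in 5 other settings, among them DESeq2 (-1.03), limma voom and no filter (-1.04), and without LZK KO replicate 4, untreated (-1.17) or vincristine (-1.18). Against LZK KO, CEBPB passed without LZK KO untreated replicate 3 (-1.56) or double KO untreated replicate 2 (-1.53), and TRIB3 without LZK KO untreated replicate 3 (-0.76).

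**Figure D2:**
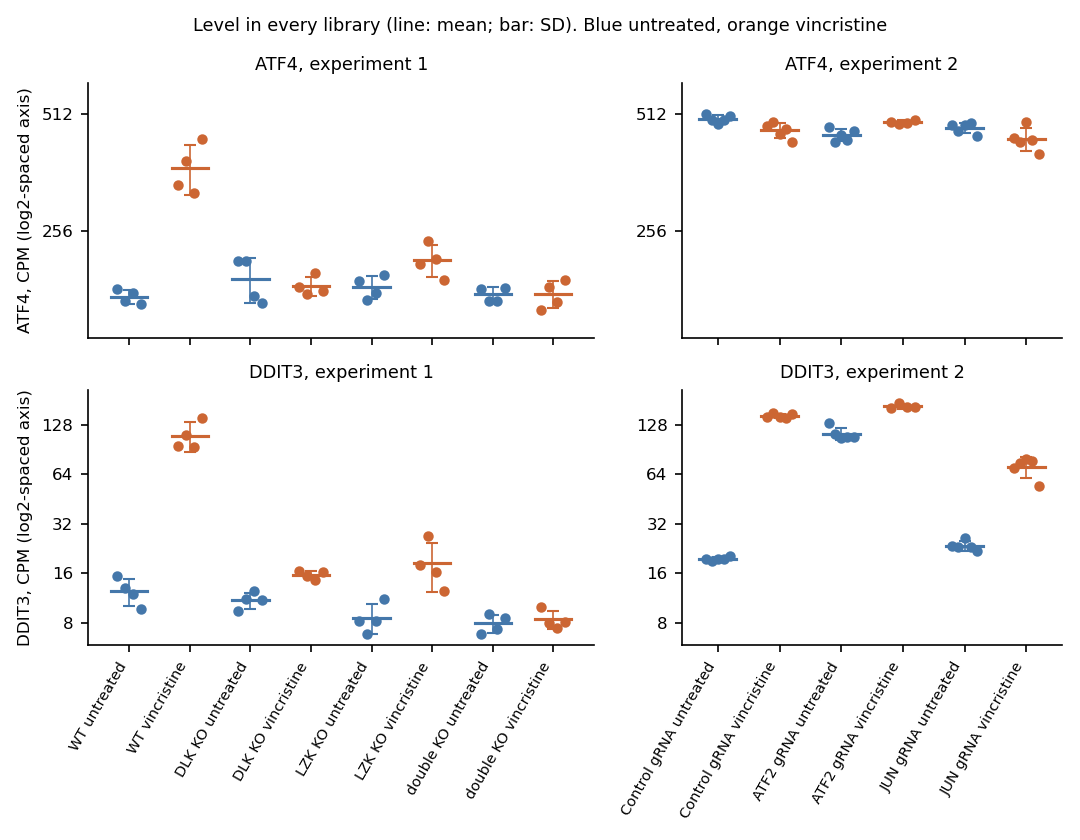
CPM of ATF4 (top) and DDIT3 (bottom) in every library of experiment 1 (left) and experiment 2 (right), on log2-spaced axes; horizontal lines are group means and bars are SD. In experiment 1, WT with vincristine (321 to 441 CPM) is the only group whose ATF4 libraries lie above all others. DDIT3 is at most 26.1 CPM in every untreated group except ATF2 gRNA (106 to 130 CPM).

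In experiment 1 the order of the group means of ATF4 ran from untreated WT (174 CPM) over the double KO with vincristine (177), the double KO untreated (177), LZK KO untreated (185), DLK KO with vincristine (186), DLK KO untreated (193) and LZK KO with vincristine (216) to WT with vincristine (372). Each neighbour in that order overlapped the next, except the last pair. DDIT3 had the same topmost pair, LZK KO with vincristine (18.4 CPM) and WT with vincristine (110), and these were its only neighbours that did not overlap in experiment 1. CHAC1 separated further. Both double KO groups (1.68 CPM with vincristine and 2.06 untreated) lay below LZK KO untreated (3.50), which lay below DLK KO untreated (4.55).

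Without vincristine the knockouts already differed from WT in several of the regulators. ATF5, TRIB3 and CEBPB were lower in all 3 knockouts. ATF5 fell by 0.65 ± 0.13 in DLK KO (log2 scale), by 0.89 ± 0.14 in LZK KO and by 0.86 ± 0.13 in the double KO, and TRIB3 fell by 0.80 ± 0.13, 0.91 ± 0.13 and 0.75 ± 0.13. For both genes all libraries of each knockout lay below all of WT. The share of all genes with libraries apart was not counted here, but 17.9%, 16.8% and 22.1% of all genes were called lower in DLK KO, LZK KO and the double KO. PPP1R15A, the eIF2 phosphatase subunit, was lower in DLK KO (-0.42 ± 0.10) but higher in LZK KO (0.58 ± 0.09) and in the double KO (0.58 ± 0.09). Its libraries stood at 58.0 to 62.9 CPM in WT, 41.8 to 47.3 in DLK KO, 73.7 to 102 in LZK KO and 86.5 to 94.7 in the double KO.

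CHAC1 untreated was lower in the double KO, at 2.08, 2.09, 2.01 and 2.05 CPM (-1.35 ± 0.17), and in LZK KO (-0.59 ± 0.16). The double KO values came from 20 to 26 counts per library. DDIT4 was lower in LZK KO (-0.66 ± 0.09) and in the double KO (-0.56 ± 0.09), and DDIT3 in LZK KO (-0.54 ± 0.19) and in the double KO (-0.65 ± 0.18). SESN2 was lower in LZK KO only by a weak call (-0.44 ± 0.16). In sum, 0 of the 10 were called higher and 4 lower in DLK KO (16.5% and 17.9% of all genes), 1 higher and 7 lower in LZK KO (17.1% and 16.8%), and 1 higher and 6 lower in the double KO (23.6% and 22.1%). In either direction, 34.5%, 33.9% and 45.7% of all genes were called. ATF4 and CEBPG were called by edgeR in none of the 3, with log2 differences from -0.15 to 0.15.

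The weaker of these untreated calls did not hold when some single libraries were left out, at times with a log2 difference that hardly moved. Those of CEBPB (-0.79 in DLK KO, -0.66 in the double KO) were lost without WT untreated replicate 2 (-0.64 and -0.53), and the latter also without double KO untreated replicate 1, 2 or 4 (-0.62 to -0.51). That of DDIT3 in LZK KO was lost without WT untreated replicate 1 (-0.44) or LZK KO untreated replicate 1 or 2 (-0.52 and -0.46), and that of SESN2 without WT untreated replicate 1 or LZK KO untreated replicate 2, 3 or 4 (-0.45 to -0.40). CEBPG in the double KO (-0.15) passed without WT untreated replicate 4 (-0.19), with limma voom (-0.15), with offsets for GC content (-0.23) and in a fit of only the 2 groups (-0.17). Offsets for GC content ended the LZK KO calls of DDIT3 (-0.49) and CHAC1 (-0.50), and limma voom that of SESN2 (-0.32). Near CEBPB the 50 nearest tested genes, 25 on each side, had a median log2 difference of 0.65 between untreated double KO and WT, opposite in sign to CEBPB itself. The part of that shift in the CEBPB value was not tested. Pluripotent cell markers (5 genes) summed to 2.81 to 3.35 CPM in untreated WT, 10.3 to 14.3 in DLK KO, 13.2 to 18.8 in LZK KO and 52.9 to 59.1 in the double KO, most of it LIN28A, and their part in these differences was not tested.

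Experiment 2 gave the response in neurons with a Control gRNA. There 9 of the 10 rose with vincristine, where 35.3% of all genes were called and 17.1% were called higher. For these 9 all treated libraries lay above all untreated ones, as did those of 14% of all genes. DDIT3 stood at 19.5, 19.0, 19.5, 19.4 and 20.2 CPM untreated and at 142, 150, 143, 140 and 148 CPM with vincristine (log2 fold change 2.89 ± 0.07). CEBPB (2.51 ± 0.20), TRIB3 (2.45 ± 0.07) and ATF5 (2.03 ± 0.06) followed. SESN2 rose by 1.71 ± 0.06, PPP1R15A by 1.37 ± 0.05, DDIT4 by 1.27 ± 0.05 and CEBPG by 0.98 ± 0.04.

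ATF4 and CHAC1 were the 2 regulators with the smallest changes there. CHAC1 stood at 40.7, 45.2, 37.4, 40.6 and 38.7 CPM untreated and at 57.4, 67.4, 59.8, 61.7 and 51.8 CPM with vincristine (0.56 ± 0.08). Beside it, its WT value in experiment 1 was 2.88 ± 0.12, from untreated levels of 4.21 to 6.43 CPM; the 2 experiments were not compared by a test. ATF4 stood at 511, 493, 481, 495 and 505 CPM untreated and at 476, 488, 454, 469 and 434 CPM with vincristine. It was called lower (-0.10 ± 0.04, edgeR adjusted p = 0.029), where 18.1% of all genes were, although the highest treated library lay above the lowest untreated one. That call was lost without untreated replicate 1, 4 or 5 or vincristine replicate 3 or 5 (-0.09 to -0.07), with no filter (-0.08), with a filter at a mean of 1 CPM (-0.08) and with offsets for GC content (-0.07).

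With the ATF2 gRNA, several regulators were high before any vincristine was given. Of the 10, 9 were higher in untreated ATF2 gRNA than in untreated Control gRNA and 1, ATF4, was lower, where 19.7% and 20.2% of all genes were called. ATF5 stood at 150, 146, 138, 160 and 154 CPM in untreated ATF2 gRNA and at 22.9, 25.0, 20.1, 21.3 and 20.1 CPM in untreated Control gRNA (log2 difference 2.78 ± 0.06). DDIT3 stood at 130, 113, 106, 107 and 108 CPM, against 19.0 to 20.2 CPM (2.53 ± 0.07). TRIB3 stood at 68.9, 63.3, 67.9, 67.2 and 66.2 CPM, against 18.6 to 19.9 CPM (1.80 ± 0.06). For these 3 genes the groups were far apart and each group was narrow.

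CEBPB (1.43 ± 0.20), SESN2 (0.75 ± 0.05), PPP1R15A (0.32 ± 0.05) and CEBPG (0.17 ± 0.04) were higher as well, with no overlap of libraries. Across all genes, the libraries of 13.8% lay wholly above and those of 15.6% wholly below Control gRNA. CHAC1 (0.24 ± 0.08) and DDIT4 (0.13 ± 0.05) overlapped. The call of CHAC1 was lost without ATF2 gRNA untreated replicate 1 (0.21), and that of DDIT4 without Control gRNA untreated replicate 2, 4 or 5 or ATF2 gRNA untreated replicate 1 or 3 (0.11 to 0.12) and with limma voom (0.11). ATF4 stood at 472, 433, 452, 440 and 461 CPM, all below the Control gRNA libraries (481 to 511 CPM), with a log2 difference of -0.14 ± 0.04 that became -0.05 and lost its call with offsets for GC content. Pluripotent cell markers summed to 33.8 to 40.2 CPM in untreated ATF2 gRNA and 9.58 to 13.5 CPM in untreated Control gRNA, the progenitor markers to 738 to 815 and 1310 to 1400 CPM, and 5 astrocyte markers to 6.56 to 8.42 and 1.74 to 2.57 CPM. With vincristine the progenitor markers summed to 696 to 805 CPM in ATF2 gRNA and 2431 to 2527 CPM in Control gRNA. The part of these markers in the differences was not tested.

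Set beside vincristine-treated Control gRNA, the untreated ATF2 gRNA level was higher for 1 gene, lower for 7 and overlapping for 2 (16.7% and 17.9% of all genes lay apart in those directions). The one above was ATF5, at 138 to 160 CPM against 78.7 to 97.3 CPM. DDIT3 reached 78.0% of the vincristine-treated Control gRNA mean, TRIB3 63.6%, SESN2 51.1%, PPP1R15A 48.4%, CEBPB 47.2% and DDIT4 45.3%.

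**Figure D3:**
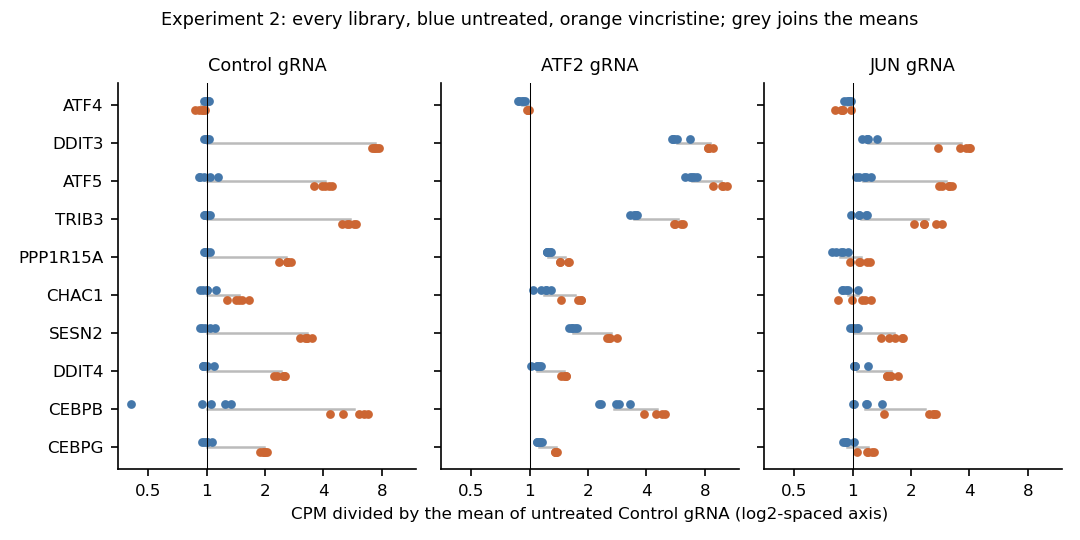
CPM of each library of experiment 2 divided by the mean of untreated Control gRNA (log2-spaced axis), for the 10 genes in the 3 lines; blue is untreated, orange is vincristine, and grey lines join the means. In ATF2 gRNA the blue points of ATF5, DDIT3, TRIB3 and CEBPB already lie well to the right of 1, whereas in JUN gRNA the blue points lie near 1.

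With vincristine added to ATF2 gRNA, 9 of the 10 rose (6.1% of all genes were called, 1.88% higher and 4.22% lower). The treated libraries of all 10 lay above the untreated ones, as did those of 2.76% of all genes. The steps were small, from 0.28 ± 0.04 for CEBPG and 0.28 ± 0.06 for PPP1R15A to 0.75 ± 0.06 for TRIB3. DDIT3 stood at 162, 172, 163 and 163 CPM (0.55 ± 0.07). ATF4, at 489, 483, 485 and 494 CPM, had a log2 difference of 0.11 ± 0.04 that was not called (edgeR adjusted p = 0.0717), yet was called with RLE or upper-quartile scaling factors, DESeq2 and 4 other settings, and without ATF2 gRNA untreated replicate 1 (0.13). The call of CEBPB (0.74 ± 0.19) was lost without vincristine replicate 2 (0.70) or 4 (0.72).

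As a difference in effect, ATF2 gRNA had smaller responses than Control gRNA for 8 of the 10 and a larger one for ATF4 (0.21 ± 0.05), where 20.6% of all genes were called, 10.4% lower and 10.2% higher. DDIT3 (-2.34 ± 0.10), CEBPB (-1.77 ± 0.28), TRIB3 (-1.70 ± 0.09) and ATF5 (-1.52 ± 0.09) differed most. CHAC1 responded by 0.55 ± 0.09 in ATF2 gRNA and by 0.56 ± 0.08 in Control gRNA (difference -0.01 ± 0.12, not called). The end levels show the same data from another side. With vincristine in both lines, ATF5 (192 to 229 CPM) and DDIT3 (162 to 172 CPM) lay above Control gRNA (78.7 to 97.3 and 140 to 150 CPM), while PPP1R15A, SESN2, DDIT4 and CEBPG lay below it and the other 4 overlapped. Across all genes 16.1% lay above and 19.6% below.

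The JUN gRNA left the untreated regulators close to Control gRNA. Of the 10, DDIT3 (0.27 ± 0.07) and ATF5 (0.19 ± 0.06) were higher and PPP1R15A was lower (-0.21 ± 0.05), where 5.78% and 5.46% of all genes were called. The call of ATF5 was lost without Control gRNA untreated replicate 3, 4 or 5 or JUN gRNA untreated replicate 1, 2 or 3 (0.15 to 0.18), with RLE (0.18) or upper-quartile factors (0.17) and in a fit of only the 2 groups (0.18). CEBPG (-0.09) passed without JUN gRNA untreated replicate 4 (-0.12).

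With vincristine, 8 of the 10 rose in JUN gRNA (7.58% of all genes were called higher and 8.31% lower). DDIT3 stood at 23.4, 23.1, 26.1, 23.2 and 21.8 CPM untreated and at 70.0, 75.0, 78.7, 77.3 and 53.9 CPM with vincristine (1.59 ± 0.07). Its treated libraries lay above all untreated ones, as did those of 5.67% of all genes. They lay below all treated Control gRNA libraries, as did those of 10.4% of all genes. In JUN gRNA the progenitor markers summed to 957 to 1080 CPM untreated and 1656 to 1762 CPM with vincristine, and the neuron markers to 7812 to 8358 and 6511 to 6881 CPM. The part of these markers in the result was not tested. ATF5 rose by 1.42 ± 0.06, TRIB3 by 1.16 ± 0.06 and CEBPB by 1.03 ± 0.19. CHAC1 (0.18 ± 0.08) and ATF4 (-0.09 ± 0.04) did not pass the edgeR test, but CHAC1 passed with limma voom (0.27) and ATF4 with offsets for GC content (-0.11). CHAC1 also passed without JUN gRNA vincristine replicate 5 (0.25), which held the lowest value of its group for DDIT3 (53.9 CPM), CHAC1 (34.0), CEBPB (5.04), SESN2 (73.9) and CEBPG (190), and ATF4 passed without JUN gRNA untreated replicate 5 (-0.12) or vincristine replicate 3 (-0.13).

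Responses in JUN gRNA were smaller than in Control gRNA for 9 of the 10 (7.06% of all genes were called lower and 8.71% higher), from -0.38 ± 0.12 for CHAC1 to -1.48 ± 0.27 for CEBPB, with DDIT3 at -1.30 ± 0.09 and TRIB3 at -1.29 ± 0.09. ATF4 was the exception (0.00 ± 0.05). The 2 gRNAs were also compared directly. The response in ATF2 gRNA was smaller than in JUN gRNA for DDIT3 (-1.04 ± 0.09), ATF5 (-0.91 ± 0.09) and TRIB3 (-0.41 ± 0.09) and larger for ATF4 (0.20 ± 0.05), where 1.92% and 0.91% of all genes were called. For the other 6 the differences ran from -0.29 ± 0.27 (CEBPB) to 0.37 ± 0.12 (CHAC1) and were not called by edgeR. That of CHAC1 passed with DESeq2 (0.38) and offsets for GC content (0.40), and when vincristine replicate 2 of ATF2 gRNA (0.46) or vincristine replicate 3 of JUN gRNA (0.43) was left out. In end level, the vincristine libraries of ATF2 gRNA lay above those of JUN gRNA for 8 of the 10, where 10.6% of all genes did.

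The third question was how DDIT3 moved relative to ATF4 and its linked genes. In counts, DDIT3 was 5.84% to 8.40% of ATF4 in the untreated WT libraries and 28.0% to 31.9% with vincristine. The log2 ratio rose by 2.05 (exact permutation test, 2-sided, adjusted p = 0.0333 over 7 lines). It rose by 0.572 in DLK KO and by 0.835 in LZK KO (adjusted p = 0.0333 each, exact permutation test), and the change of 0.0799 in the double KO did not pass (adjusted p = 0.657). With 4 libraries against 4, the smallest p such a test can give before adjustment is 0.0286, which the 3 lines that passed reached.

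In experiment 2 the untreated ratio already differed between lines. DDIT3 was 3.82% to 4.06% of ATF4 in untreated Control gRNA, 4.77% to 5.46% in JUN gRNA and 23.4% to 27.6% in ATF2 gRNA, and 29.8% to 34.1%, 13.3% to 17.6% and 33.1% to 35.7% with vincristine. The log2 ratio rose by 2.99 in Control gRNA (adjusted p = 0.0278, exact permutation test), by 1.68 in JUN gRNA (adjusted p = 0.0278) and by 0.442 in ATF2 gRNA (adjusted p = 0.0333). In Control gRNA the 2 parts of the ratio stood at 2.89 (DDIT3) and -0.10 (ATF4) on the log2 scale.

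**Figure D4:**
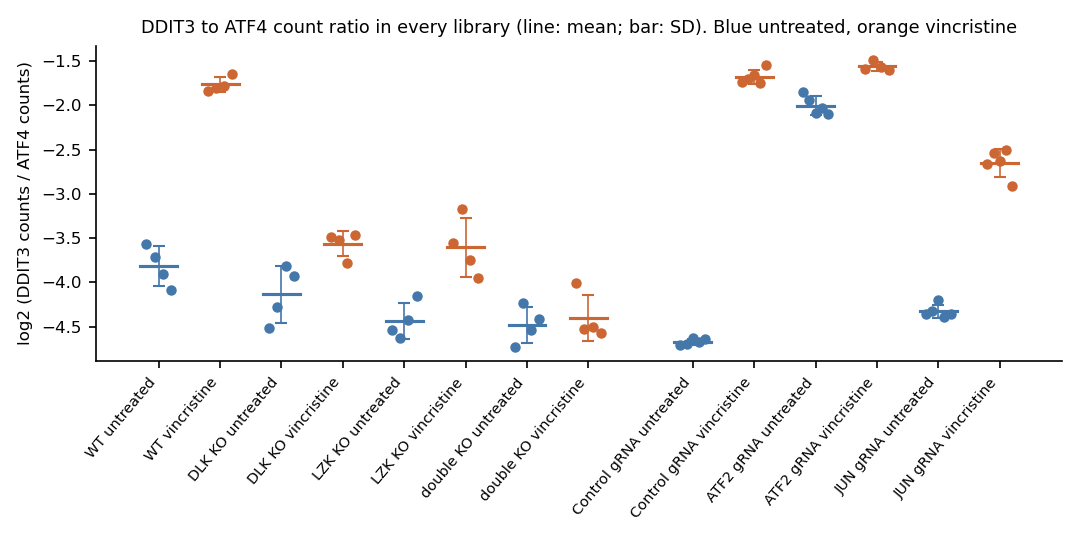
Log2 of DDIT3 counts over ATF4 counts (0.5 added to each) in every library of the 14 groups; lines are means and bars SD. WT and Control gRNA rise with vincristine to about the level that ATF2 gRNA nearly holds untreated, and the double KO groups overlap.

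Other partners gave different pictures. DDIT3 counts were on average 48.4% of CHAC1 counts in untreated Control gRNA and 245% with vincristine, against 245% and 283% in WT, so in WT the 2 genes rose nearly in step and in Control gRNA they did not. Against TRIB3, DDIT3 stood at 88.2% and 150% in WT and at 102% and 139% in Control gRNA. These ratios are described without a test.

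Over libraries, DDIT3 tracked most of the regulators in both experiments but ATF4 in only one. Pearson's r of log2 CPM between DDIT3 and ATF4 was 0.93 over the 32 libraries of experiment 1 (Spearman 0.58) and -0.26 over the 29 of experiment 2. The libraries fall into groups that share a line and a treatment, and the r values of experiment 1 rest largely on WT with vincristine. DDIT3 and TRIB3 had r = 0.94 and 0.99 (Spearman 0.79 and 0.95). DDIT3 and PPP1R15A had r = 0.60 and 0.76 (Spearman 0.30 and 0.83). By the lower of the 2 r values among 12338 genes, the 5 other genes most like DDIT3 were TRIM66 (0.97), SARS (0.96), ELMSAN1 (0.93), YPEL4 (0.92) and IER2 (0.91), with TRIB3 and ATF5 at ranks 3 and 4 among all genes. TRIM66 (0.96), ELMSAN1 (0.95), SARS (0.94), SLC7A5 (0.94) and VEGFA (0.93) were most like TRIB3. No gene followed ATF4 as closely in both experiments, the nearest being ANP32B (0.58), RNF41 (0.56), GART (0.55), C12orf65 (0.51) and GOT1 (0.50).

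The wider pathway was read from lists of known genes. Of other ATF4 target genes, for amino acid synthesis and transport, transfer RNA charging and related tasks, 27 of 30 tested rose in WT and 27 of 31 in Control gRNA, and 0 fell in either, where 15.7% and 17.1% of all genes were called higher. Their median log2 fold change was 1.28 in WT and 0.49 in Control gRNA. In WT the highest were SLC7A11, the cystine transporter (5.11 ± 0.18), and STC2, a secreted glycoprotein (4.08 ± 0.22), and the lowest called were NARS (0.26 ± 0.09) and WARS (0.73 ± 0.06), both transfer RNA synthetases. In Control gRNA the highest were ATF3, a stress transcription factor (3.48 ± 0.07), and GDF15, a secreted stress hormone (2.77 ± 0.33), and the lowest called were NARS (0.10 ± 0.04) and MARS (0.19 ± 0.04). In the double KO 0 of 30 were called by edgeR.

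In ATF2 gRNA 26 of the 31 ATF4 targets rose with vincristine (median 0.36; all genes, 1.88%) and in JUN gRNA 19 rose and 1 fell (median 0.19; all genes, 7.58% and 8.31%). As a difference from Control gRNA, 15 were lower and 2 higher in ATF2 gRNA, and 22 were lower and 0 higher in JUN gRNA (all genes, 10.4% and 10.2% for ATF2 gRNA, 7.06% and 8.71% for JUN gRNA). Untreated ATF2 gRNA had 15 higher and 5 lower than Control gRNA, with a median of 0.13, beside the medians of 0.53 for the 10 regulators and 0.02 for all genes, of which 19.7% were higher and 20.2% lower. GDF15 was higher there by 5.28 ± 0.32, with all libraries above Control gRNA, and ATF3 by 0.20 ± 0.07, with libraries that overlapped.

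Among 4 genes linked to DDIT3, 3 rose in WT and in Control gRNA, where 15.7% and 17.1% of all genes were called higher. BBC3, a BH3-only death gene, rose by 2.58 in WT and by 2.43 in Control gRNA, BCL2L11, another, by 2.44 and 1.54, and TNFRSF10B, a death receptor, by 1.71 and 1.53. ERO1A, an endoplasmic reticulum oxidase, fell by 0.26 in WT, and its difference of 0.13 in Control gRNA was not called. In untreated ATF2 gRNA, TNFRSF10B (1.56) and BBC3 (0.93) were higher than in Control gRNA, while BCL2L11 (0.11) and ERO1A (-0.01) were not called. All 4 responses to vincristine were smaller in ATF2 gRNA than in Control gRNA (all genes, 10.4%).

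Upstream, fewer of the eIF2 kinase and translation genes passed the test. In WT 3 of 20 rose and 4 fell, and in Control gRNA 4 rose and 7 fell, with medians of -0.06 and -0.03. The shares in WT (all genes, 15.7% higher and 14.5% lower) and the share that rose in Control gRNA (all genes, 17.1%) were near those of all genes. Those counts are therefore not a result about the list. Beside the 7 that fell in Control gRNA, 18.1% of all genes were called lower, a smaller share. EIF2AK3, which encodes the kinase PERK, had the largest fold change in both. It rose by 1.88 ± 0.06 in WT, 1.57 in DLK KO and 1.75 in LZK KO and had a difference of -0.10 in the double KO, which was not called. The double KO response was lower than that of DLK KO by 1.67 and than that of LZK KO by 1.84, both called. In experiment 2 EIF2AK3 rose by 1.96 ± 0.06 in Control gRNA, 0.90 in JUN gRNA and 0.22 in ATF2 gRNA. EIF2S2, an eIF2 subunit, rose by 0.81 ± 0.11 in WT, and EIF2AK2, which encodes PKR, by 0.36 ± 0.06 in Control gRNA. DNAJC3, an inhibitor of PERK, fell by 0.80 ± 0.10 in WT and by 0.31 ± 0.07 in Control gRNA, EIF2B3 fell by 0.26 ± 0.10 in WT and EIF2B5 by 0.30 ± 0.04 in Control gRNA.

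The ATF6 and XBP1 arm, which raises chaperones of the endoplasmic reticulum in the unfolded protein response, had more members that fell than rose. In WT 11 of 18 fell and 6 rose (median -0.73), and in Control gRNA also 11 fell and 6 rose (median -0.41). Of all genes 14.5% fell and 15.7% rose in WT, and 18.1% fell and 17.1% rose in Control gRNA. In WT the chaperone SDF2L1 (-2.87 ± 0.31) and MANF (-1.58 ± 0.11) fell most, and XBP1 (1.73 ± 0.08) and HERPUD1 (1.39 ± 0.09) rose most. In Control gRNA CRELD2 (-1.03 ± 0.10) and CALR (-0.85 ± 0.05) fell most, and XBP1 (0.92 ± 0.06) and EDEM1 (0.76 ± 0.07) rose most. In untreated ATF2 gRNA 10 of the 18 were higher and 0 lower than in Control gRNA, with a median of 0.26, where 19.7% of all genes were higher.

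Close relatives of the regulators had smaller fold changes than most of the regulators, described without a test of the difference. In Control gRNA, SESN3 and TRIB2 rose by more than CHAC1 and ATF4. Of 7 tested paralogs in WT, 4 rose and 1 fell (all genes, 15.7% and 14.5%), and the highest were CEBPA (0.91 ± 0.27) and TRIB2 (0.86 ± 0.06), the lowest called CHAC2 (-0.72 ± 0.22) and PPP1R15B (0.40 ± 0.07). In Control gRNA 2 of 8 rose, SESN3 (0.76 ± 0.08) and TRIB2 (0.63 ± 0.04), and SESN1 fell (-0.17 ± 0.06), shares near those of all genes (17.1% and 18.1%). In the double KO 0 of 7 were called by edgeR.

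**Figure D5:**
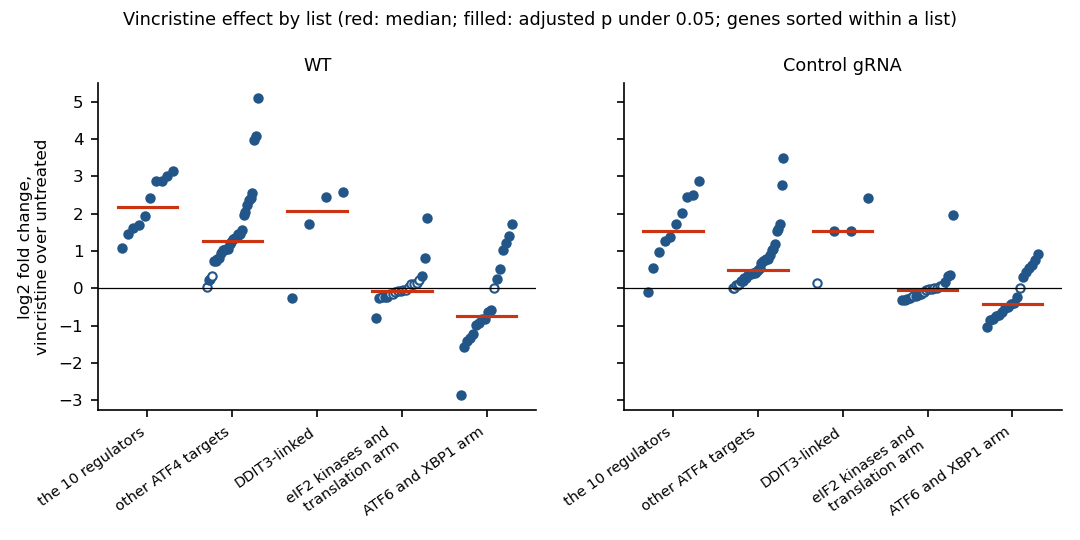
Log2 fold change of vincristine over untreated for each tested gene of 5 lists in WT (left) and Control gRNA (right); red lines are medians, filled points have an adjusted p under 0.05, and genes are sorted within a list. The medians of the 10 regulators are 2.19 and 1.54, those of the other ATF4 targets 1.28 and 0.49, and those of the ATF6 and XBP1 arm -0.73 and -0.41.

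Some of these genes share exon sequence with neighbours on the opposite strand, and the strand setting of the counting is not given in the sources used here. For DDIT3 31.6% of exon bases overlap MARS or MBD6 on the opposite strand, for ATF5 21.2% overlap NUP62 or IL4I1, for DDIT4 41.2% overlap DDIT4-AS1 and for CEBPB 11.8% overlap CEBPB-AS1. DDIT3 also shares 8.03% of its exon bases with AC022506.1 on its own strand, to which 0 counts were assigned in every library. NUP62 had 351 to 747 counts in experiment 1 and 2110 to 5044 in experiment 2, while ATF5 had 55 to 170 counts in the untreated libraries of experiment 1, and the part of NUP62 reads in the ATF5 values was not tested. DDIT4-AS1 had at most 20 counts and CEBPB-AS1 at most 290 in any library, and the 4 ATF4 pseudogenes counted had at most 27.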

How the data were processed

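The deposited files are 2 tables of raw counts per gene, 1 per experiment (whole numbers, totals unequal). Per the submitters' processing notes, the tools were cutadapt 3.4, STAR and featureCounts of Subread 2.0.1, on GRCh38. Per the labels' protocols, libraries were made from poly(A) RNA with a stranded kit and sequenced in pairs. All count columns were matched to samples by name (0 unused). Of 58440 identifiers, 58320 were matched to a symbol and 56992 had the same version in GENCODE 29.

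Each experiment was fitted alone with edgeR 4.0.16 in R 4.3.3 (TMM factors, filterByExpr by group, robust quasi-likelihood fit, 1 mean per group, no covariate). Calls have a Benjamini-Hochberg adjusted p under 0.05 over all genes tested. SE is the log2 fold change over the square root of F. The DDIT3 to ATF4 log2 count ratio (0.5 added) was compared by exact permutation tests, adjusted over 7 lines. Alternatives were RLE and upper-quartile factors, DESeq2 1.42.0, limma 3.58.1 voom with quality weights, other filters, protein-coding genes only, a replicate block, only the groups compared, each library left out and, chosen after earlier results of these data were known, offsets for GC content. The edgeR fit was also run on counts simulated with the spread that edgeR had estimated, which cannot show how outlying libraries are handled.

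Named are all 10 regulators, all 4 DDIT3-linked genes, in each other list the 2 highest and 2 lowest called genes in WT and in Control gRNA with a mean log2 CPM of at least 1, and the 5 genes most like DDIT3, ATF4 and TRIB3. EIF2AK3 in other lines, and GDF15 and ATF3 in untreated ATF2 gRNA, were followed after their values were seen. The regulators and lists were chosen with earlier results of these data known. The number of libraries and their spread limit the precision. Counting error also limits CHAC1 and CEBPB in experiment 1. Untreated libraries held as few as 20 to 26 counts of CHAC1 (double KO) and 14 to 41 of CEBPB (LZK KO).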

Additional observations from a re-analysis of the deposited data

Results flagged for a closer look

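Of the 140 levels checked (10 genes in 14 groups), 7 (5%) held a library whose gap to its nearest neighbour was large for the range of its group; chance alone marks about 5% of groups. They were DDIT3 in ATF2 gRNA untreated replicate 1 (130 CPM, others 106 to 113) and vincristine replicate 3 (172 CPM, others 162 to 163), CHAC1 in ATF2 gRNA vincristine replicate 2 (59.1 CPM, others 72.1 to 74.2), DDIT4 in LZK KO vincristine replicate 4 (19.4 CPM) and in JUN gRNA untreated replicate 3 (87.8 CPM), CEBPB in JUN gRNA vincristine replicate 5 (5.04 CPM) and CEBPG in WT vincristine replicate 4 (292 CPM).

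In 57 tests the response to vincristine differed between 2 lines (edgeR interaction term, log2 scale). Against WT the differences in DLK KO, LZK KO and the double KO, in that order, were -1.15, -0.87 and -1.09 for ATF4, -2.62, -2.05 and -3.08 for DDIT3, -1.58, -1.44 and -1.90 for ATF5, -1.82, -1.86 and -2.51 for TRIB3 and -0.75, -1.05 and -1.47 for PPP1R15A. They were -2.13, -1.84 and -3.15 for CHAC1, -2.19, -1.88 and -2.87 for SESN2, -1.36, -1.03 and -1.65 for DDIT4, -2.23, -1.87 and -3.25 for CEBPB and -1.47, -1.32 and -1.51 for CEBPG. The double KO differed from DLK KO in PPP1R15A (-0.72) and CHAC1 (-1.02), and from LZK KO in CHAC1 (-1.31), SESN2 (-0.99) and DDIT4 (-0.62).

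Against Control gRNA the differences in ATF2 gRNA and JUN gRNA, in that order, were -2.34 and -1.30 for DDIT3, -1.52 and -0.61 for ATF5, -1.70 and -1.29 for TRIB3, -1.09 and -1.01 for PPP1R15A, -1.06 and -1.02 for SESN2, -0.80 and -0.70 for DDIT4, -1.77 and -1.48 for CEBPB and -0.70 and -0.63 for CEBPG. For ATF4 the call was in ATF2 gRNA (0.21), and for CHAC1 in JUN gRNA (-0.38). ATF2 gRNA differed from JUN gRNA in ATF4 (0.20), DDIT3 (-1.04), ATF5 (-0.91) and TRIB3 (-0.41).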

How the results depend on the processing

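Over the 20 comparisons of the 10 genes, 1923 of 2000 values with another processing setting stayed on the same side of the threshold, as did 2364 of 2430 with a library left out. The others gained or lost a call. No value that was called with either setting changed sign, but 56 values called in neither did. Offsets for GC content changed 20 of 200 calls and were chosen after earlier results were seen. The vincristine effect in DLK KO called 8 genes in place of 5 when only the groups compared were fitted. The difference between double KO and DLK KO called 4 (limma voom), 5 (no filter), 1 (GC content offsets) or 6 (only the groups compared) in place of 2, and 1 to 2 with a library left out. That between double KO and LZK KO called 5 in place of 3 with DESeq2, limma voom, no filter or only the groups compared, and 2 to 5 with a library left out. Untreated JUN gRNA against Control gRNA called 6 in place of 3 with GC content offsets. The cause was not tested.

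The replicate numbers share no stated culture or day. Same-numbered libraries deviated together weakly (correlations of deviations -0.313 to 0.22), not every library matched its own number best, and the replicate block changed 3 of 200 calls. With the replicate block the ratio of DDIT3 to ATF4 changed by 2.05 (WT), 0.572 (DLK KO), 0.835 (LZK KO), 2.99 (Control gRNA), 0.479 (ATF2 gRNA) and 1.68 (JUN gRNA), each with an exact permutation adjusted p = 0.146. With so few pairs that test could not give an adjusted p under 0.05. With a library left out the range was 1.96 to 2.14 for WT, 0.446 to 0.677 for DLK KO and 0.689 to 0.948 for LZK KO, and 3 against 4 libraries cannot pass after adjustment.

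Among list counts, the eIF2 genes lower in WT were 4, but 2 (upper-quartile factors, only the groups compared), 8 (limma voom) or 1 (no filter), and those higher in untreated ATF2 gRNA 5 to 9. With only the groups compared, 2 other ATF4 targets were called higher and 1 lower in the double KO. The 5 genes most like DDIT3, ATF4 or TRIB3 changed with Spearman correlation and with group means in place of libraries. TRIM66 kept rank 1 for DDIT3 under both. For ATF4 the best rank of the 5 named genes was 6 (Spearman) and 9 (group means). Depth limits CEBPB and CHAC1 most in experiment 1, where untreated levels were under 7 CPM.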
